A study of Mus musculus with 2 samples.

Results

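The 36 nuclear-encoded genes of respiratory complex I measured in mouse heart muscle cells are described here, out of 27443 gene IDs held by the UMI tables of the chamber experiment, the live and fixed experiment, or both. They are all genes in either table whose ID maps to a protein-coding symbol that starts with Ndufa, Ndufb, Ndufc, Ndufs, Ndufv or Ndufab, with the assembly factors (Ndufaf) left out. No measured level enters this rule, but it was chosen with earlier results of these data known. All 36 were in both tables, and each had at least 62 UMIs in every pool of cells, so none was lost to the minimum of 30 UMIs used for ratios. A UMI is a random tag that marks 1 captured RNA molecule.

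Single cardiomyocytes of wild type C57BL/6 adult mice were sorted by flow cytometry into plates after collagenase and protease digestion of the heart, and their polyadenylated RNA was sequenced with the SCRB-seq method. In the chamber experiment the mice were about 3 months old, no cell was fixed, and cells carry the labels LA, RA, LV and RV for the left and right atrium and ventricle. In the live and fixed experiment the cells came from the ventricles and were sorted either before (live) or after (fixed) treatment with cold ethanol. No animal is named, so each label is 1 pool of cells without replicates, no test was run, and intervals cover counting error only.

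Complex I takes electrons from NADH, passes them along a flavin and iron-sulfur clusters to ubiquinone, and pumps protons across the inner mitochondrial membrane. Its matrix arm carries the redox centres and its membrane arm carries the pumps, whose core subunits are encoded by the mitochondrial genome (the mt-Nd genes), while the nuclear genome supplies the core of the matrix arm and all accessory subunits. The heart depends on oxidative phosphorylation for its contraction, and its muscle cells are filled with mitochondria.

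Kept cells had 1000 or more gene UMIs and 500 or more genes. They numbered 91 of 96 for LV, 90 of 96 for RV, 56 of 71 for LA, 44 of 69 for RA, 35 of 36 for fixed and 31 of 36 for live. The median depth of kept cells ranged from 4437 gene UMIs in RA to 77150 in fixed. All 84 cell barcodes of the chamber experiment were used in more than 1 of its 4 libraries (A to D), so a cell is known by its barcode and library together. All 8 cardiac myocyte markers were detected in each of the 6 pools, at 2.57% to 6.50% of nuclear-encoded UMIs. The atrial markers followed the atrial labels only in part. Nppa had 0 UMIs in LA and in RA, and RA held 0 UMIs of all 4 atrial markers. In LA, Myl7 had 81 UMIs against 3 in LV and 0 in RV, and Sln had 7 against 1 and 3. Myl4 had 2 UMIs in LA against 16 in LV and 13 in RV. The ventricular markers Myl2 and Myl3 together took 1.80% in LA and 2.28% in RA against 2.03% in LV and 1.99% in RV. The protocol in the labels names the ventricle alone as the part that was cut out and minced. The pools are therefore called by their labels. Globin and other erythroid RNA was 2.68% and 4.98% of the LA and RA totals, against 1.21% for LV and 1.30% for RV, and 1 RA cell of library C gave 27.9% of all nuclear-encoded UMIs of its pool.

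Levels are given in CPM, UMIs of a gene per 1000000 nuclear-encoded UMIs of the pool, with mitochondrially encoded genes outside the total. Together the 36 genes made up 2.52% of the LV and 2.52% of the RV total. Their summed share was 2.32% for LA and 2.78% for RA. In the live and fixed experiment they made up 1.23% and 1.35%. The 2 experiments were prepared and counted separately, so their levels are set side by side and not compared.

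The members' levels spanned more than 10-fold within each pool, and their order was nearly the same from pool to pool. In LV the levels ran from 146 CPM for Ndufb4 to 1978 CPM for Ndufa4, a 13.6-fold span, with a median of 692 CPM. The 5 highest members gave 28.0% of the complex I UMIs in LV and 28.0% in RV. Spearman's rho of the order over the 36 genes was 0.99 between LV and RV, 0.92 between LA and RA and 0.96 between live and fixed. The chamber pools share the libraries they were made in. Live and fixed cells come from the same experiment, whose labels name no library. Most neighbours in the order lay close together: in LV, the 95% Poisson intervals of 27 of 35 neighbouring pairs overlapped. Whether the levels within a pair differ was not tested.

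**Figure D1:**
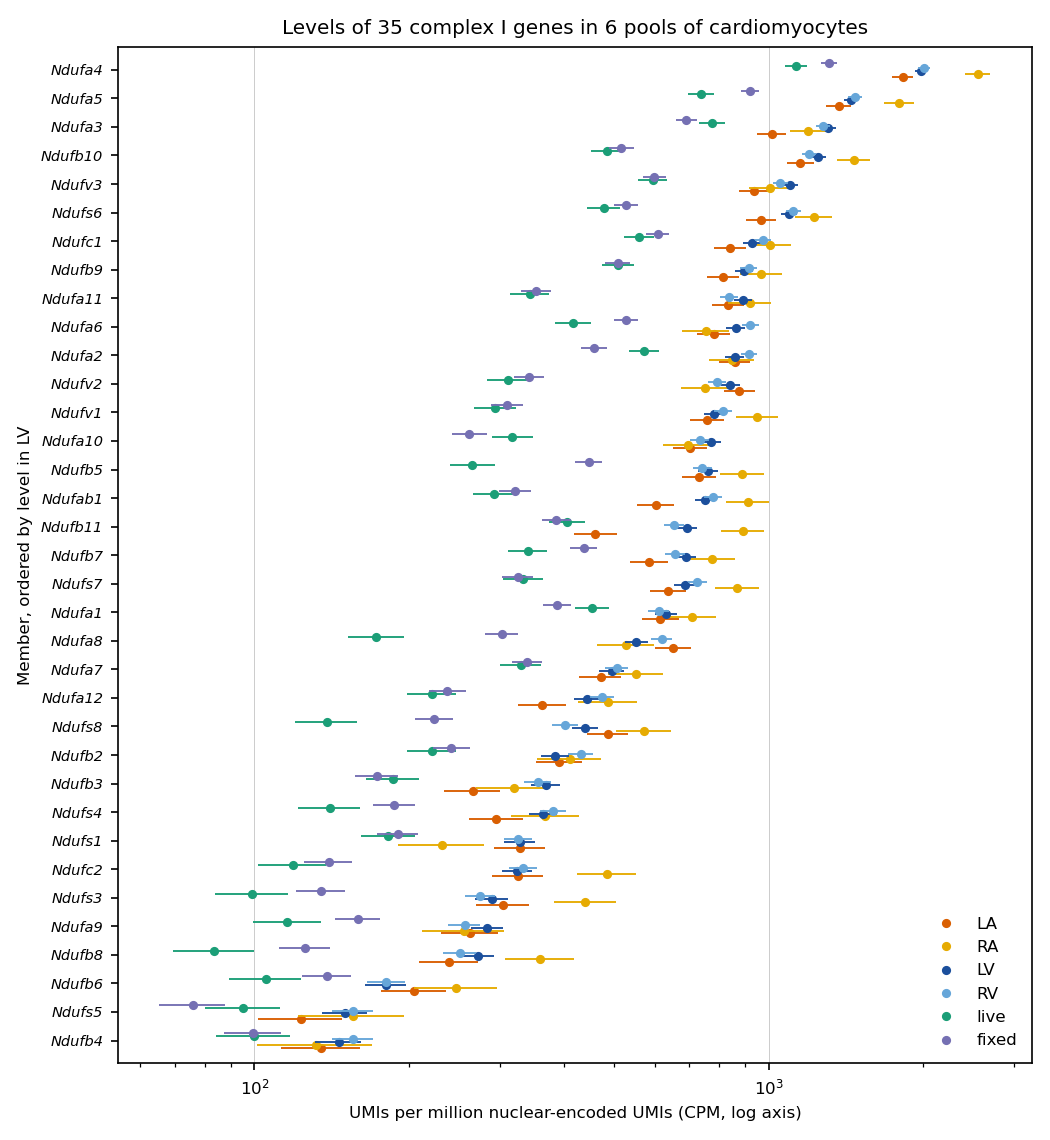
Level of 35 of the 36 members (y axis, ordered by level in LV) in CPM on a log axis (x axis), with points coloured by pool and lines for exact 95% Poisson intervals. Ndufa4 is at the top and Ndufb4 and Ndufs5 at the bottom in the 4 chamber pools, and the live and fixed points lie to the left of the chamber points.

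Ndufa4 was the most abundant member in each of the 6 pools. It carries a complex I symbol, but its protein is now placed in complex IV, cytochrome c oxidase. Its level was 1978 CPM in LV and 2007 in RV, 1825 in LA and 2553 in RA, and 1132 in live and 1310 in fixed. Over the 4 libraries it was 1461, 1973, 2226 and 2278 CPM in LV and 2030, 2091, 1981 and 1937 CPM in RV for libraries A to D. The RV values therefore lay within the LV range, and its coefficient of variation over the RV libraries, 3.28%, was the lowest of the 36.

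The core subunits of the matrix arm hold the flavin and the iron-sulfur clusters, and their RNA levels differed although the complex holds 1 copy of each. Ndufv2 had 842 CPM in LV and 795 in RV, the flavin-binding Ndufv1 784 and 815 CPM, and Ndufs7 687 and 727 CPM. Ndufs8 had 440 and 402 CPM. Ndufs1, the largest of these proteins, had 328 and 326 CPM. Ndufs3 was the lowest core gene at 290 and 275 CPM.

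Among the 9 accessory genes of the matrix arm, Ndufa5 led with 1446 CPM in LV and 1473 in RV. Ndufv3 (1099 and 1054 CPM) and the zinc-binding Ndufs6 (1095 and 1117 CPM) came next. Ndufs4, whose loss in mice causes an encephalopathy that resembles Leigh syndrome, had 364 and 381 CPM, and Ndufa9 was the lowest of this group at 284 and 256 CPM. Of the membrane arm, Ndufa3 (1305 and 1275 CPM) and Ndufb10 (1248 and 1199 CPM) were the highest, while Ndufb4 (146 and 156 CPM), Ndufs5 (150 and 156 CPM), Ndufb6 (180 and 180 CPM) and Ndufb8 (272 and 251 CPM) were at the low end. Ndufab1, the mitochondrial acyl carrier protein, which also serves fatty acid synthesis, had 752 and 780 CPM.

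For 3 members of the B series a second annotated protein-coding gene on the same strand shares exon sequence. Ndufb8 had 272 CPM in LV while the overlapping gene Gm20538, which shares 134 exonic bases with it, had 1174 CPM. Their sum, 1446 CPM, would rank 3 among the members in place of 33 for Ndufb8 alone. Ndufb9 had 896 CPM and the overlapping Gm49356 655 CPM in LV, and Ndufb2 had 385 CPM and Gm42420 237 CPM. The same order held in the other experiment, where Gm20538 had 439 CPM in live and 622 in fixed against 83.6 and 125 for Ndufb8. How reads in shared exons were assigned is not given in the sources used here, so the levels of Ndufb8, Ndufb9 and Ndufb2 are uncertain. In all, 15 members share exonic bases with another gene, 13 of them with a gene on the opposite strand.

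Processed pseudogenes, copies of a spliced transcript put back into the genome, are a second place where UMIs of a member can land. In the annotation 8 members have at least 1 pseudogene that matches at least 95% of at least 100 of the last 400 transcript bases, 9 such loci in all. For Ndufs3 (GRCm38, chr2:90894634-90904827, minus strand) and its pseudogene Gm12251 (chr11:58392769-58393560, minus strand), 781 of 792 coding bases are identical. The last 120 coding bases of Ndufs3, stop codon included, are shown because they hold 0 mismatches to Gm12251, so that a read within them fits both loci equally; nothing is in capitals.
Ndufs3 and Gm12251: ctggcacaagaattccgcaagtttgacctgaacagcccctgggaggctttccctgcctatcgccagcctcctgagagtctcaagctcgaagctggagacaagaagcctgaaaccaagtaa

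The UMIs listed at these pseudogenes differed between the deposited tables. In the chamber table Gm12251 held 208 UMIs and Ndufs3 2055, so that 9.19% of their sum stood at the pseudogene. In the live and fixed table Gm12251 held 558 UMIs and Ndufs3 474, so that 54.1% did. The share at pseudogenes was also higher in the live and fixed table for Ndufab1 (25.3% against 0.474%), Ndufa11 (21.3% against 1.32%), Ndufs6 (18.1% against 2.19%) and Ndufb11 (14.4% against 4.10%). Summed over all members, copies held 0.390% of member and copy UMIs in the chamber table and 3.85% in the live and fixed table. Why the tables differ was not tested. Within 1 table the effect on ratios was small: with Gm12251 added, the fixed to live log2 ratio of Ndufs3 was 0.35 in place of 0.43.

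**Figure D2:**
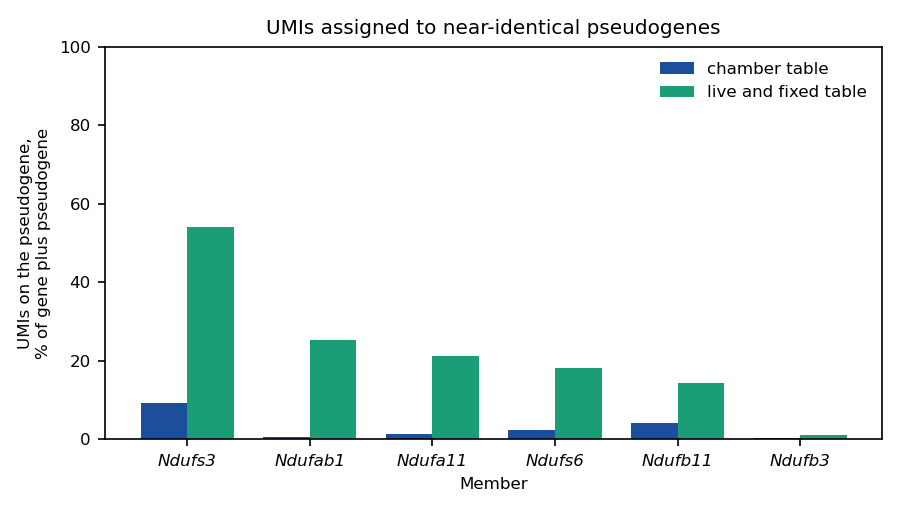
UMIs listed at processed pseudogenes as a percentage of gene plus pseudogene UMIs (y axis) for the 6 members with UMIs at such a copy (x axis), with 1 bar for the chamber table and 1 for the live and fixed table. The bar of Ndufs3 reaches 54.1% in the live and fixed table and 9.19% in the chamber table.

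Promoters were read for motifs of factors known to act on genes of mitochondrial proteins. The members lie on 15 chromosomes. The RefSeq promoter table (GRCm38.p6, 250 bases before to 50 after the start) held 32 of the 36 members and 27025 genes in all. Letters were searched on both strands, with overlaps allowed. The NRF1 motif GCGCANGCG was in the promoters of 8 members (25%) and in 7.03% of all genes, and the YY1 motif AAGATGGCG in 5 members (15.6%) and 1.64% of all genes. The ETS motif ACCGGAAGT, which GABP binds, was in 1 member (3.13%) and 1.21% of all genes, and the ERR motif TCAAGGTCA in 0 members and 0.466% of all genes. The median GC content was 59.0% for member promoters and 52.7% for all promoters. Ndufs6 is shown because it is the member whose promoter holds 2 of the motifs, NRF1 and YY1, and Ndufa8 because it holds the NRF1 motif at 2 places and is the member with the highest fixed to live ratio. Capitals mark the motif matches, which in these windows describe letters and not binding.
Ndufs6, chr13:73328433-73328732, minus strand: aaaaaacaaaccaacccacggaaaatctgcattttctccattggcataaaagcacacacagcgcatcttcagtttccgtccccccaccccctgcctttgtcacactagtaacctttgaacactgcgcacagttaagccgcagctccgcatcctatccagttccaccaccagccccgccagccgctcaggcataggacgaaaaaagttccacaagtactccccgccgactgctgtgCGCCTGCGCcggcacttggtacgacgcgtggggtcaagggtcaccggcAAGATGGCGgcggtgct
Ndufa8, chr2:36049289-36049588, minus strand: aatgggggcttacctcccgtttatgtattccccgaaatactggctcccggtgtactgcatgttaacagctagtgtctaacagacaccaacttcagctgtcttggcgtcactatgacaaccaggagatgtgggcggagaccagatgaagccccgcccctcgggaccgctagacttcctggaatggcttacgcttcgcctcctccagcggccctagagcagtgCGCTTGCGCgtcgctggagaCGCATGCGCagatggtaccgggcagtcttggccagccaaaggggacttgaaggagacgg

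Left and right ventricular cells had the same pooled complex I share. It was 2.52% in LV and in RV, with a ratio of 1.00 (95% interval 0.990 to 1.01). No member of the 36 was at least 1.5-fold apart in either direction on the scale of log2(CPM + 5), and the members' log2 ratios ran from -0.16 to 0.14 with a median of -0.01. Among all 10812 genes with at least 30 UMIs, 11.4% were at least 1.5-fold higher in LV and 7.18% lower, with a median of 0.03. Among the 831 genes with UMI sums in the range of the members, those shares were 0.481% and 0%, so a count of 0 is close to the background of abundant genes. Ndufa9 and Ndufs8 were among the highest members (log2 ratios 0.14 and 0.13), and the lowest were Ndufa8, Ndufb2 and Ndufa6 (-0.16, -0.16 and -0.10).

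The equal pooled share hid opposite differences in the summed UMIs of the libraries. The LV share was 2.16%, 2.34%, 2.77% and 2.84% in libraries A to D, and the RV share was 2.68%, 2.47%, 2.61% and 2.33%. LV was therefore lower than RV in libraries A and B (ratios 0.805 and 0.944) and higher in C and D (1.06 and 1.22), each with a 95% counting interval that left out 1. These intervals do not cover the spread between cells. Over cells with at least 5000 gene UMIs, the variance of the share was 65.7 times that of counting in LV and 53.0 times in RV. The nuclear genes of complexes II to V, the other respiratory complexes and ATP synthase, stood at 5.12%, 5.56%, 6.22% and 6.08% in LV and 6.26%, 5.70%, 5.75% and 5.40% in RV. None of the 36 members was higher, and none lower, in LV in all 4 libraries; over all genes 6.42% were higher and 5.11% lower in all 4. Ndufs7, which helps form the ubiquinone site, had 620, 477, 626 and 1015 CPM over the LV libraries and 814, 622, 752 and 725 CPM over the RV libraries. Its 2 ranges overlap, and its highest value lies in LV library D.

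The median cell differed less between the LV libraries than the summed UMIs did, and more between the RV libraries. The median cell of LV held 2.60%, 2.66%, 2.73% and 3.03% of its nuclear-encoded UMIs in complex I genes in libraries A to D, and that of RV 2.63%, 2.75%, 2.71% and 2.21%. The cell with the most UMIs of LV, in library A, held 1.92%. Single cells ranged from 0.332% to 4.28% in LV and from 0.449% to 3.58% in RV.

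**Figure D3:**
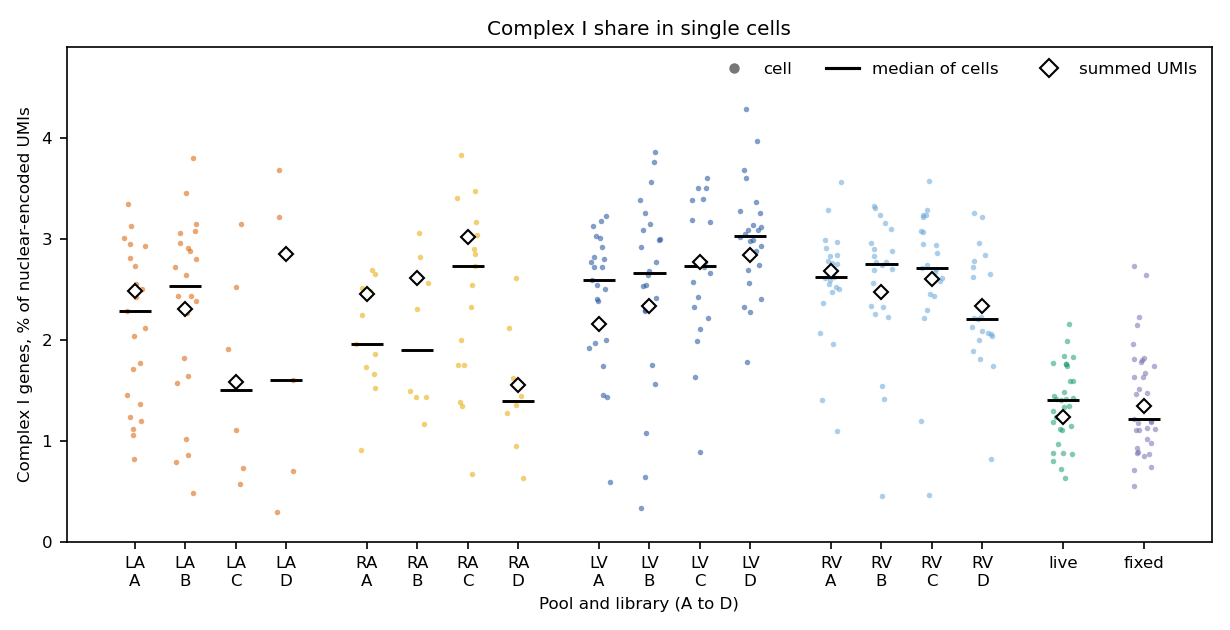
Complex I genes as a percentage of nuclear-encoded UMIs (y axis) in each kept cell (points), by pool and, for the chamber pools, library (x axis), with lines for the median cell and open diamonds for the summed UMIs. Cells of 1 library spread more widely than the library medians, and in LV library A the summed value (2.16%) lies below the median cell (2.60%).

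Pools labelled atrial and ventricular lay close to each other in summed complex I UMIs. LA and RA together held 2.47% and LV and RV together 2.52%, a ratio of 0.980 (0.969 to 0.992). It was 1.03, 0.968, 0.992 and 0.926 within libraries A to D. No member was 1.5-fold apart, against 12.6% of 11682 genes higher and 15.1% lower, and against 1.53% and 4.12% of the 849 genes with UMI sums in the members' range. The members' median log2 ratio was -0.04, and that of all genes -0.06. With each cell weighted equally the ratio of the shares was lower, at -0.29 on the log2 scale, and 7 members (of 36) were at least 1.5-fold lower in the atrial pools, while 25.8% of all genes were. The median depth was lower and erythroid RNA higher in the atrial pools, and the part of these in the result was not tested.

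The members furthest apart stayed well inside the limit and went in both directions. Ndufs3 was the highest, with 350 CPM in the atrial and 282 in the ventricular pools (1.24-fold, 1.12 to 1.38). Ndufb3, an accessory subunit of the membrane arm, was the lowest, with 284 and 361 CPM (0.784-fold, 0.703 to 0.874). Ndufs8 (515 and 419 CPM) and Ndufb6 (219 and 180 CPM) were higher, and Ndufa3 (1075 and 1289 CPM) and Ndufs4 (320 and 373 CPM) lower. Within all 4 libraries 5 members, among them Ndufa11, Ndufa5, Ndufb6 and Ndufb8, were higher in the pools labelled atrial, 13.9% of the members against 2.63% of all genes. In the pooled UMIs, however, the intervals of Ndufa11, Ndufa5 and Ndufb8 included a ratio of 1, and that of Ndufb6 lay above it. The pooled ratio of Ndufa11 was 0.999. All genes here include many with far fewer UMIs than the members, so these percentages do not compare genes of like level. Ndufa12, Ndufa3, Ndufa6 and Ndufb3 were lower in all 4, 11.1% against 14.7%. Log2 ratios above 0, most of them small, were held by 6 of the 7 core genes, 1 of the 9 accessory genes of the matrix arm, 3 of 8 and 4 of 10 accessory genes of the membrane arm (the A, C and S series and the B series), and 5212 of all 11682 genes.

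LA had a lower complex I share than RA in the summed UMIs, at 2.32% against 2.78% (ratio 0.832, 0.814 to 0.851). The 8 cardiac myocyte markers were lower in LA by more, at 4.76% against 6.50% (ratio 0.732), and stood at 2.63% in LA and 7.01% in RA within library C. The deepest LA cell gave 10.6% of its pool's nuclear-encoded UMIs and held 0.486% complex I. The part of these in the result was not tested. The difference did not hold within libraries: LA held 2.48%, 2.31%, 1.58% and 2.85% and RA 2.45%, 2.61%, 3.02% and 1.55% in libraries A to D. The ratios were 1.01, 0.885, 0.524 and 1.84, so library C and library D pointed in opposite directions. LA library C held 6 cells, in which mesothelial markers reached 0.515% of UMIs, and RA library D held 8 cells with 21.0% erythroid RNA. Without library C the log2 ratio of the shares was 0.07 in place of -0.26, with each cell weighted equally it was 0.02, and without the deepest cell of each pool -0.11.

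Of the 36 members 2 were at least 1.5-fold lower in LA, and none higher. Over all 5715 genes with at least 30 UMIs 15.5% were that much lower and 28.5% higher, and over the 976 genes with UMI sums in the members' range 11.1% and 10.2%, so the count is at or below the background. Ndufb11, a membrane arm subunit encoded on the X chromosome, had 461 CPM in LA and 891 in RA and was 1.94-fold lower (1.69 to 2.22). By library it had 617, 346, 327 and 704 CPM in LA and 664, 1218, 946 and 516 CPM in RA, lower in 3 of 4. With each cell weighted equally its log2 ratio was -0.55, within the 1.5-fold limit. Ndufab1 had 603 and 913 CPM and was 1.51-fold lower (1.33 to 1.72). Its libraries split evenly, with 764, 567, 345 and 464 CPM in LA and 554, 860, 1070 and 364 CPM in RA, and without library C its log2 ratio turned to 0.10. Ndufc2 and Ndufs7 were lower in LA in all 4 libraries, though under 1.5-fold in the pool (log2 ratios -0.57 and -0.45). They are 5.56% of the members, against 3.81% of all genes lower in all 4. The count of members at least 1.5-fold lower was 8, 3, 1 and 4 without library A, B, C or D, where 18.7%, 20.7%, 15.0% and 16.6% of all genes were that much lower, and 1 member was higher without library B. Without cells of more than 2% other-cell RNA 10 members were that much lower, against 21.3% of all genes. The members' median was -0.26, against 0.10 for all genes and -0.09 for genes with UMI sums in their range. Log2 ratios were below 0 for 28 members and above 0 for 8. Ndufb8 had the third lowest (-0.58). The highest ratios were those of Ndufs1 (329 CPM in LA and 232 in RA, 1.42-fold, 1.14 to 1.78), Ndufa8 (1.24-fold, 1.06 to 1.44) and Ndufv2 (1.17-fold, 1.03 to 1.33). Ndufs1 and Ndufa8 were higher in 2 of 4 libraries and Ndufv2 in 1.

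**Figure D4:**
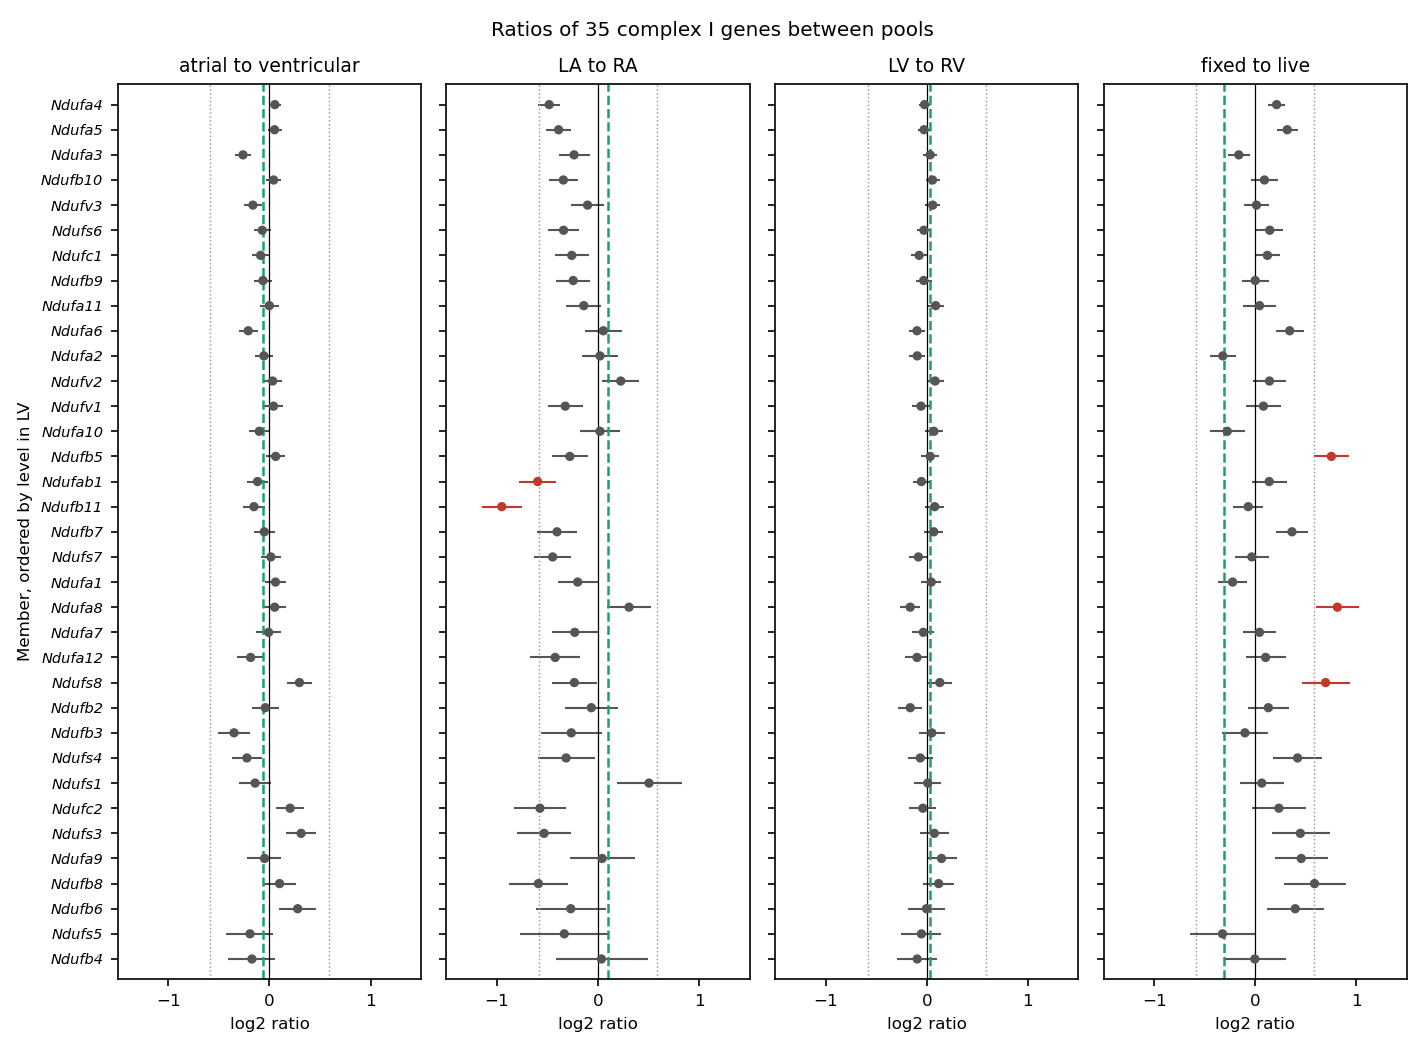
Log2 ratio of the share of nuclear-encoded UMIs of 35 members (x axis) in 4 comparisons (panels), with members ordered by their level in LV (y axis), exact 95% intervals as lines, dotted lines at 1.5-fold, a dashed line at the median of all genes, and red for members past 1.5-fold. Points crowd around 0 for LV to RV, and in the fixed to live panel most lie to the right of the median of all genes at -0.31.

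After ethanol, most members took a slightly larger share than before, while most other genes took a smaller one. The share was 1.35% in fixed and 1.23% in live cells (ratio 1.09, 1.07 to 1.11). Of the 36 members 26 had a log2 ratio above 0, with a median of 0.12, while the median of all 7860 genes was -0.31 and that of genes with UMI sums in the members' range -0.19. The members' median thus lay 0.43 above that of all genes, and it lay 0.50 above it when the totals were scaled by TMM, edgeR's trimmed mean of M-values, which set the median of all genes to 0.03. In the median cell the order was the reverse, with 1.21% in fixed and 1.41% in live. The quartiles of the cells were 0.998% and 1.76% in fixed and 1.11% and 1.66% in live, so the ranges overlapped. Fixed cells were deeper, at a median of 77150 against 40367 gene UMIs, and the part of depth in these ratios was not tested.

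The members at least 1.5-fold higher in fixed cells were 3, and none was that much lower. Over all genes 7.54% were that much higher and 33.8% lower, and over the 974 genes with UMI sums in the members' range 5.65% and 26.7%. Ndufa8, an accessory subunit on the intermembrane-space side, had 303 CPM in fixed and 173 in live (1.75-fold, 1.52 to 2.03). Ndufb5 had 447 and 266 CPM (1.68-fold, 1.50 to 1.89). Ndufs8, which carries iron-sulfur clusters of the core, had 224 and 138 CPM (1.62-fold, 1.38 to 1.91). Their UMIs were spread over most cells: Ndufa8 had a UMI in 34 of 35 fixed and 29 of 31 live cells, and its highest cell gave 14.6% and 13.3% of its UMIs. For Ndufs8 the highest fixed cell gave 17.0%, and with each cell weighted equally Ndufa8 and Ndufs8 fell inside the limit (log2 ratios 0.58 and 0.42) while Ndufb5 did not (0.84). Ndufb5 shares 616 exonic bases with Mrpl47 on the opposite strand, which had 10.3 CPM in fixed and 12.8 in live. At the other end Ndufa2, Ndufs5 and Ndufa10 had log2 ratios of -0.32, -0.31 and -0.27. Under TMM scaling 14 members passed the limit upward and none downward, where 18.4% of all genes were higher and 18.7% lower.

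The mitochondrially encoded subunits of complex I did not go with the nuclear ones after ethanol. mt-Nd4 is not among the 6 mt-Nd genes counted here and enters no mt-Nd value. Of these 6, 5 were at least 1.5-fold lower in fixed cells, against 33.8% of the 7860 nuclear-encoded genes with at least 30 UMIs. The median log2 ratio of the 6 was -0.82. mt-Nd1, the exception, had 23636 CPM before ethanol and 16468 CPM after it (log2 ratio -0.52). mt-Nd2 had 13725 and 8435 CPM, and its log2 ratio was -0.70. mt-Nd4l had -0.63, mt-Nd6 -0.95, mt-Nd5 -1.78 and mt-Nd3 -1.79. In the chamber pools the mt-Nd genes differed less: their median was -0.23 for atrial to ventricular and -0.05 for LV to RV, with none past 1.5-fold. mt-Nd3 had 1419 CPM in live but 21.0 CPM in LV, and that gap between the tables was not tested.

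Across single cells the nuclear complex I share went with that of the other respiratory complexes. Over cells with at least 5000 gene UMIs, Spearman's rho between the complex I share and the share of complexes II to V was 0.83 for LV (89 cells), 0.86 for RV (87), 0.89 for LA (36), 0.81 for RA (18), 0.83 for live (31) and 0.94 for fixed (34). The matrix arm and membrane arm shares went together with rho from 0.63 in RV to 0.90 in fixed. The relation to the mt-Nd share ran from -0.32 in RA to 0.56 in fixed, and was 0.20 in LV and 0.14 in RV. The points of a pool are cells of shared libraries, and both shares of a cell have the same total. Spearman's correlation between the complex I and erythroid shares was -0.72 for RA and -0.34 for LA, and nearer 0 for LV (-0.08), RV (0.03), fixed (0.05) and live (0.25).

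How much the members varied between cells against other genes depended on the measure. Beyond counting error, the median member's coefficient of variation was 50.1% for LV, 43.3% for RV, 56.4% for LA and 32.2% for RA, against 63.4%, 55.5%, 66.1% and 43.4% for genes with levels in the members' range. In live it was 58.9% against 58.7% and in fixed 58.5% against 59.9%. The ratio of variance to that of counting alone was higher for the median member, at 5.95 for LV, 5.07 for RV, 5.15 for LA and 3.01 for RA, against 4.71, 4.72, 4.17 and 2.66 for those genes. In live it was 6.26 against 3.95 and in fixed 8.39 against 5.32. The 2 measures thus point in opposite directions in the chamber pools. In LV the variance ratio ran from 1.34 for Ndufb4, the least abundant member, to 10.5 for Ndufa4, the most abundant. Whether members and comparison genes were of like level within that range was not tested. When every cell of at least 5000 UMIs was thinned to 5000 UMIs, the median cell showed 27 of the 36 members for LV, 28 for RV, 27.5 for LA, 28.5 for RA, 22 for live and 23.5 for fixed. Unthinned, the median was 36 in LV and RV. Thinning left out 20 LA and 26 RA cells under 5000 UMIs, and at most 3 in any other pool. Ndufa4 was seen in 97.8% of thinned LV cells and Ndufs5 in 31.5%.

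At least 1 assembly factor was past 1.5-fold in each comparison, and 1 gene of the other respiratory complexes was, in fixed to live. The assembly factors had far fewer UMIs, 4245 in LV and RV together against 319289 for the nuclear genes of complexes II to V. The counts of the lists therefore do not compare genes of like level. Among 18 assembly factors, which are needed to put the complex together and are not part of it, the highest in LV were Ndufaf8 (94.3 CPM) and Tmem70 (85.3 CPM), below every member. Foxred1 (log2 ratio -0.93), Ndufaf6 (-0.66) and Ndufaf7 (-0.65) were at least 1.5-fold lower in the atrial pools and none was that much higher, so that 3 of 18 stand beside 15.1% of all genes. In LA to RA 7 of the 15 with enough UMIs were past the limit, Dmac2 and Timmdc1 higher (log2 ratios 1.14 and 0.85) and Nubpl, Tmem186, Ndufaf3, Ndufaf1 and Ndufaf2 lower (-1.28 to -0.73), where 28.5% of all genes were higher and 15.5% lower. In LV to RV Tmem186 alone was past it (-0.83), where 11.4% of all genes were higher and 7.18% lower. Of the 14 with enough UMIs in the fixed to live comparison only Ndufaf2 was past the limit, with 10.3 CPM in fixed and 43.1 in live (log2 ratio -1.65). Over all genes 33.8% were that much lower in fixed cells and 7.54% higher. In the 3 chamber comparisons 7.18% to 28.5% of all genes were past 1.5-fold in a given direction. Of the 43 nuclear genes of complexes II to V none was past it there, and 1, Atp5d of ATP synthase, was that much higher in fixed cells (log2 ratio 0.64). Their median log2 ratios were -0.01 for atrial to ventricular, -0.18 for LA to RA, -0.01 for LV to RV and -0.03 for fixed to live against 0.12 for the complex I members in the last of these.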

How the data were processed

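For each experiment the authors deposited raw UMI counts and read counts by gene and barcode, and a list of cells with their label and library. Per the submitters' processing notes, STAR 2.5.4b, featureCounts and GRCm38 were used. Annotation release and strandedness, like the collapsing of UMIs, were not given in the sources used here. Symbols and coordinates came from GENCODE M21, which matched 24489 of 24522 and 22648 of 22679 gene IDs. The deposited per-cell labels gave the groups, and 45 unlabelled barcode columns were left out; no doublet caller was run. The members and lists were chosen with earlier results of these data known.

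UMIs of kept cells were summed per pool in Python 3.11.15 (pandas 2.3.3, scipy 1.17.1). Spike-ins stayed out, and so did mitochondrial genes from the total. SCRB-seq counts transcript ends, so levels were not divided by length. To each CPM 5 was added before the log2 ratio was taken, so ratios of low genes are understated; a gene with at least 30 UMIs was counted at 1.5-fold. Printed fold ratios have exact Clopper-Pearson intervals. The interval code was tested on simulated counts. TMM factors came from edgeR 4.0.16 and median-of-ratios factors from DESeq2 1.42.0 in R 4.3.3; neither tool was used for a test. Named members were those past 1.5-fold, the 3 highest and 3 lowest ratios of each comparison, the 5 most and least abundant in LV and RV, the core subunits and Ndufa4; others are named for shared sequence or because all 4 libraries went 1 way. A member that enters the counts is not reported here by itself. The alternatives changed the total, scaling, cell filter, weighting, libraries and thresholds.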

Additional observations from a re-analysis of the deposited data

Results flagged for a closer look

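Over the 4 RV libraries Ndufab1 had 736, 735, 881 and 731 CPM, and library C stood apart at 881 CPM, with a gap of 0.966 of the whole range to its nearest neighbour. The limit used to flag a gap is reached by chance in about 1 of 20 groups of 4, and this gap lay above that limit. In all, 24 sets of values were examined. In the live and fixed experiment 24 barcode columns carry no cell label, and 16 complex I UMIs were counted in 10 of them, with at most 4 in any one. That is 1.37% of their 1168 nuclear-encoded UMIs, and their source was not tested.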

How the results depend on the processing

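Main log2 ratios of the complex I share were -0.029 for atrial to ventricular, -0.26 for LA to RA, 0.00071 for LV to RV and 0.13 for fixed to live, with 0, 2, 0 and 3 members at least 1.5-fold apart. In that order the share became 0.033, -0.39, -0.050 and 0.54 with TMM and 0.045, -0.40, -0.043 and 0.54 with median-of-ratios factors, each with 6 members apart for LA to RA and 14 for fixed to live. All 6 were lower, against 19.9% of all genes with TMM and 20.5% with median of ratios. All 14 were higher, against 18.4% and 18.2%. With read counts the share was -0.0047, -0.34, 0.056 and 0.39, with 9 members apart for LA to RA and 13 for fixed to live. For LA to RA 2 were higher and 7 lower, against 41.4% and 24.7% of all genes. For fixed to live all 13 were higher, against 17.4%. With all gene UMIs as the total the share was 0.13, 0.054 and 0.38 for the comparisons other than LA to RA. Then 1 member was lower for LA to RA, against 14.3% of all genes, and 9 were higher for fixed to live, against 12.1%. With a protein-coding total the share was -0.047, -0.22 and 0.073 for atrial to ventricular, LA to RA and fixed to live. For LA to RA 1 member was lower, against 14.3% of all genes. With cells weighted equally the share was -0.29, 0.021, 0.078 and 0.043. For atrial to ventricular 7 members stood apart, all lower, against 25.8% of all genes. For LA to RA 2 stood apart, both higher, against 30.0%. For fixed to live 2 were higher and 1 lower, against 10.5% and 33.9%. For atrial to ventricular and LA to RA, cells of at least 5000 UMIs gave 0.0036 and -0.31, and cells of at least 20000 UMIs 0.030 and -0.34. Cells with at most 2% other-cell RNA gave 0.013 and -0.42. For LA to RA 4 members were lower with at least 5000 UMIs, against 17.2% of all genes. With at most 2% other-cell RNA 10 were lower, against 21.3%. Leaving out 1 library at a time, the share ranged from -0.049 to -0.0065 for atrial to ventricular, from -0.36 to 0.068 for LA to RA and from -0.096 to 0.098 for LV to RV, and 1 to 8 members stood apart for LA to RA; for Ndufab1 in LA to RA the range was -0.93 to 0.097, with the sign turned without library C. The LA to RA count was 1 with no cell filter and 1 with a pseudocount of 20 CPM, each time lower, where 14.9% and 11.1% of all genes were. Of 3 alternatives chosen after seeing the data, leaving out the deepest cell of each pool gave 0.017 for atrial to ventricular and -0.11 for LA to RA. Equal library weights gave -0.062 with 1 member for LA to RA, lower, against 18.7% of all genes. Adding pseudogene and same-strand overlapping UMIs kept every count. Causes of these shifts were not tested. The count for LV to RV was 0 under all alternatives run, and that for fixed to live stayed at 3 to 4 under those not named. Of 2212 single member values under alternatives, 1 past the limit changed sign. Depth limits the atrial pools most: RA library D gave 511 complex I UMIs from 8 cells.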
